A study of Mus musculus with 12 samples.

Results

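The genes described here encode the protein subunits of the mitochondrial ribosome. They were taken by name, as every gene whose symbol is Mrpl or Mrps followed by a number alone, which gave 74 of the 28977 gene IDs measured. By symbol, 48 belong to the large subunit (Mrpl) and 26 to the small subunit (Mrps). The rule leaves out 8 further subunit genes with symbols of another form, such as Dap3 and Mrps18b, which are given separately below, and Mrpl53 was not analysed here. The cells were J774A.1, a mouse macrophage-like line, and their messenger RNA was sequenced after hypochlorous acid (HOCl) had been added, an oxidant that neutrophils make with myeloperoxidase. There were 4 groups of 3 libraries: HBSS, a salt solution, with 0 µM HOCl (the vehicle control), HOCl 20 µM and HOCl 100 µM, both in HBSS, and cell media in place of HBSS. Each exposure lasted 1 h, and all cells then spent 24 h in full medium before collection. The study used a lethal and a sublethal concentration without the labels assigning these words to the doses.

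The mitochondrial ribosome sits in the matrix and translates the few messenger RNAs that mitochondrial DNA encodes, all of them for subunits of the respiratory chain and ATP synthase. Its ribosomal RNAs come from mitochondrial DNA, while every one of its proteins is encoded in the nucleus, made on cytosolic ribosomes and imported. Some of these proteins have a counterpart in bacterial ribosomes and bind ribosomal RNA at the same places, and others were added during the evolution of mitochondria. The promoters of many such genes hold motifs of the nuclear respiratory factors NRF1 and GABP, transcription factors that act on genes for mitochondrial proteins.

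Levels are FPKM, fragments per length of exon and per total of reads counted, so they can be compared between genes. Each library rested on between 17683937 and 21408518 reads, recovered from the steps of the FPKM values. Each of the 74 genes drew between 136 and 4485 reads in a library, for which counting error alone is 8.57% and 1.49%. All 8 macrophage markers reached 1 FPKM in at least 1 library, led by Lyz2 and Cd68, with a summed level of 3318 to 4349 FPKM. No marker of T cells, B cells, epithelial cells, fibroblasts or endothelial cells reached 1 FPKM, and of the 3 neutrophil markers S100a8 did. Cell media replicates 1 and 2 stood apart: they correlated at 0.988 with each other over all genes kept, at 0.946 to 0.971 with the other 10 libraries, which correlated at 0.974 to 0.993 among themselves. SEs and p-values of single genes rest on all 12 libraries unless 10 libraries, without these 2, are named. Whether the replicates of a group came from separate cultures is not stated, so p-values here reflect the spread between these libraries, which may be technical. In bulk RNA, fewer cells that express a gene and less of its RNA per cell cannot be told apart.

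All 74 genes passed the filter on low values, 1 FPKM in at least 3 libraries, which kept 12026 genes in all. Over the 12 libraries the mean level of the 74 ran from 2.58 to 88.2 FPKM, with a median of 18.8 FPKM. Mrpl12 was the most abundant at 88.2 FPKM. It is the stalk protein that recruits translation factors, and it also binds the mitochondrial RNA polymerase. Mrpl2 at 67.0 FPKM and Mrpl28 at 65.6 FPKM came next, both large-subunit proteins with a bacterial counterpart. The lowest were Mrpl48 at 2.58 FPKM, Mrpl33 at 3.70 FPKM and Mrps30 at 4.90 FPKM, and the lowest value of any gene of the set in any library was 2.14 FPKM. Over the 10 libraries without cell media replicates 1 and 2, the mean levels ran from 2.52 FPKM for Mrpl48 to 75.7 FPKM for Mrpl12, with a median of 18.0 FPKM.

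At HOCl 100 µM the mitochondrial ribosomal protein genes stood slightly higher than in HBSS, and the shift was spread over the set. Of the 74, 68 had a difference above 0 on the log2(FPKM + 1) scale, which is 91.9%, against 48.5% of all genes tested. The median difference was 0.14, a 1.10-fold higher level, while the median of all genes tested was -0.0063. None of the 74 passed the limma test with Benjamini-Hochberg adjustment over all genes, for which the background is 0% of genes called, and the smallest adjusted p among them was 0.636. At an unadjusted p under 0.05, limma gave 1 of the 74, against 7.76% of all genes.

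The levels of single libraries show the same shift without a test. In 30 of the 74 genes every HOCl 100 µM library was above every HBSS library, against 16.5% of all genes, and in none was every HOCl 100 µM library below every HBSS library, against 17.6% of all genes. Summed over the set, the level was 1619, 1801 and 1770 FPKM in the HOCl 100 µM libraries, against 1447, 1598 and 1527 FPKM in the HBSS libraries. As a share of all reads the set took 0.400% ± 0.0175 in HOCl 100 µM and 0.361% ± 0.0138 in HBSS (SD, n = 3 each). The lowest HOCl 100 µM library lay close to the highest HBSS library, and the other two lay clear above.

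**Figure D1:**
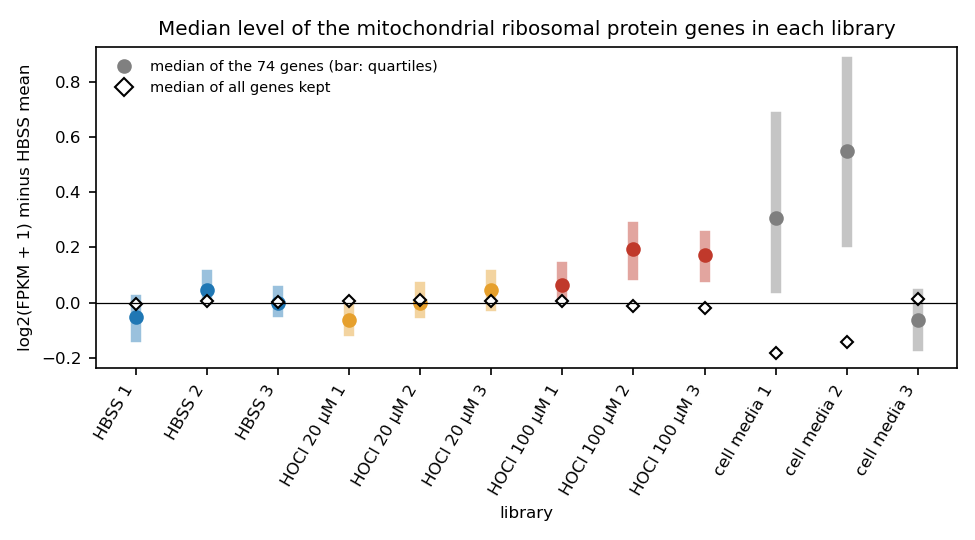
Median over the 74 mitochondrial ribosomal protein genes of log2(FPKM + 1) minus its mean in the 3 HBSS libraries, for each of the 12 libraries (circles, with a bar between the quartiles of the genes), and the same median over all genes kept (diamonds). The HOCl 20 µM libraries sit between -0.06 and 0.04, the HOCl 100 µM libraries at 0.06, 0.19 and 0.17, and cell media replicates 1 and 2 at 0.31 and 0.55.

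Among the large-subunit genes the biggest differences were those of Mrpl34 and Mrpl52. Mrpl34, for the counterpart of a small rRNA-binding protein of bacteria, stood at 43.6, 59.1 and 54.0 FPKM in the HOCl 100 µM libraries, against 35.5, 43.5 and 37.9 FPKM in the HBSS libraries. The groups did not overlap, though the lowest HOCl 100 µM library was only just above the highest HBSS library. The log2 difference was 0.41 ± 0.27 (SE; 1.33-fold; limma adjusted p = 0.672). Mrpl52, a large-subunit protein without a bacterial counterpart, stood at 30.2, 36.1 and 35.3 FPKM in HOCl 100 µM and at 23.2, 28.9 and 25.3 FPKM in HBSS, again without overlap. Its log2 difference was 0.38 ± 0.26 (SE; limma adjusted p = 0.675).

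Mrpl20, whose bacterial counterpart binds rRNA early in the assembly of the large subunit, stood at 35.7, 41.8 and 39.2 FPKM in HOCl 100 µM, against 26.6, 33.0 and 31.6 FPKM in HBSS. Mrpl12, the stalk protein, stood at 78.7, 94.3 and 92.7 FPKM in HOCl 100 µM, against 63.1, 76.5 and 72.0 FPKM in HBSS. In both genes all 3 HOCl 100 µM libraries were above all 3 HBSS libraries, and the log2 differences were 0.35 ± 0.31 and 0.32 ± 0.29 (SE; limma adjusted p = 0.708 for each). An RNA gene on the other strand, Gm16755, overlaps exons of Mrpl12, and since the strand setting of the counting is not given in the sources used here, its reads cannot be told apart from those of Mrpl12.

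The other large-subunit genes of known role ranged from a clear shift to none. Mrpl11, which forms the base of the stalk with ribosomal RNA, stood at 14.6, 16.4 and 15.7 FPKM in HOCl 100 µM and at 12.7, 12.8 and 12.7 FPKM in HBSS. The HBSS libraries were nearly equal and all HOCl 100 µM libraries were above them (log2 difference 0.27 ± 0.19 SE; limma adjusted p = 0.675). Mrpl3, near the peptidyl transferase centre, shares exon bases with Gm38077 and Gm47106 and differed by 0.11 ± 0.07. Mrpl44, which has the fold of a ribonuclease III, differed by 0.10 ± 0.11, and Mrpl58, a peptidyl-tRNA hydrolase that frees stalled chains, by 0.08 ± 0.14 (SE). Mrpl45, which anchors the ribosome at the inner membrane, stood at 50.2, 49.996 and 48.9 FPKM in HOCl 100 µM, inside the 51.2, 48.3 and 44.6 FPKM of HBSS, with a log2 difference of 0.05 ± 0.07 (SE).

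In the small subunit, Mrps24, whose bacterial counterpart lies at the entry of the messenger RNA, stood at 29.0, 34.5 and 31.4 FPKM in HOCl 100 µM, against 23.4, 26.4 and 24.6 FPKM in HBSS. The groups did not overlap (log2 difference 0.34 ± 0.32 SE; limma adjusted p = 0.717). Exons of Urgcp overlap it on the same strand, so some of its reads are uncertain. Mrps7, a protein of the head of the subunit whose exons overlap those of Gga3 and Mif4gd on the other strand, stood at 30.7, 34.4 and 37.1 FPKM in HOCl 100 µM, against 25.3, 29.7 and 28.1 FPKM in HBSS, also without overlap (log2 difference 0.29 ± 0.13 SE; limma adjusted p = 0.636). Mrps12, whose bacterial counterpart sets the accuracy of decoding, stood at 13.5, 14.1 and 16.4 FPKM in HOCl 100 µM and at 10.7, 12.2 and 12.9 FPKM in HBSS.

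Mrps6, which overlaps Slc5a3 and Gm49711 on its own strand, had a log2 difference of 0.31 ± 0.25 (SE), but its lowest HOCl 100 µM library was within the HBSS range. Mrps2 differed by 0.15 ± 0.11, Mrps16 by 0.16 ± 0.24 and Mrps22, mutated in human mitochondrial disease, by 0.08 ± 0.10 (SE). Mrps36, now known chiefly as a part of the 2-oxoglutarate dehydrogenase complex, differed by 0.14 ± 0.19 (SE). Mrps30, which structures of the mammalian ribosome place in the large subunit in spite of its name, stood at 4.90, 4.90 and 4.82 FPKM in HOCl 100 µM, against 5.33, 4.66 and 5.03 FPKM in HBSS, a log2 difference of -0.03 ± 0.07 (SE). The genes with a difference below 0 were Mrps30, Mrpl1, Mrpl24, Mrpl23, Mrpl19 and Mrps31, the last with the lowest value, -0.09 ± 0.10 (SE); apart from Mrps30 they were named after their values were seen.

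**Figure D2:**
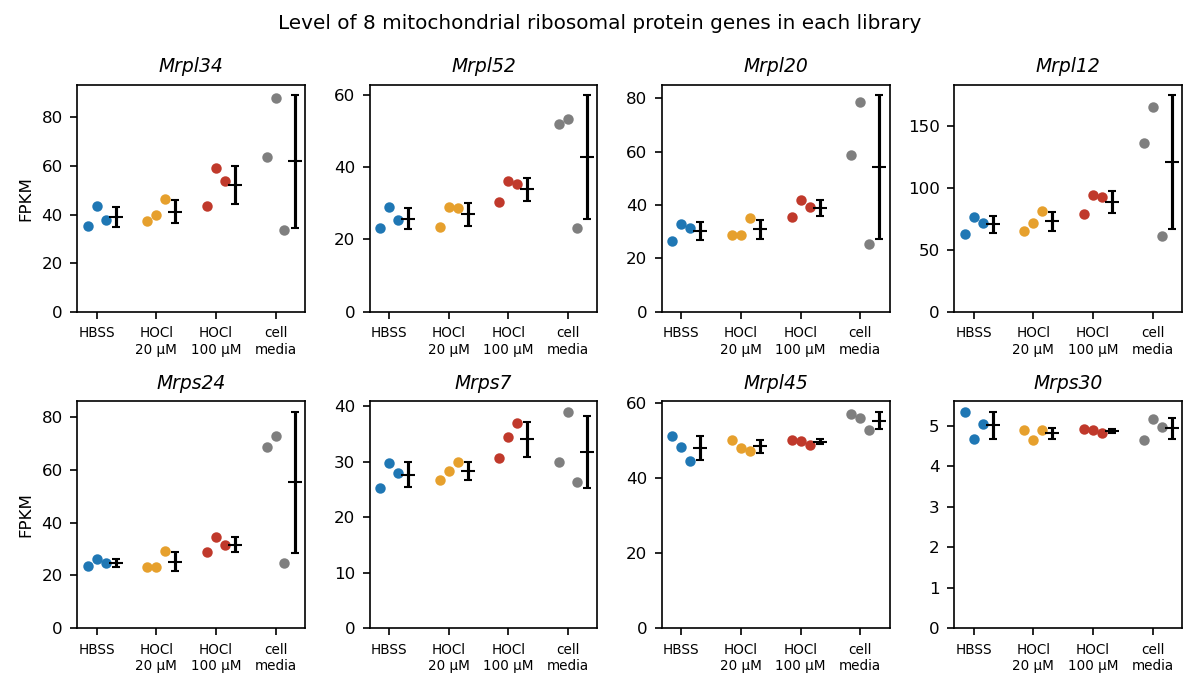
FPKM of 8 mitochondrial ribosomal protein genes in each library of the 4 groups (points), with the mean and SD of each group beside them (bar, n = 3). In Mrpl34, Mrpl52, Mrpl20, Mrpl12, Mrps24 and Mrps7 every HOCl 100 µM library is above every HBSS library, in Mrpl45 and Mrps30 the groups overlap, and cell media replicates 1 and 2 lie far above cell media replicate 3 in the first 5.

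After Mrpl30, Mrps7 had the smallest p of the set, followed by Mrpl39, Mrps27, Mrpl47 and Mrpl46. Mrpl30, a large-subunit protein with a bacterial counterpart, stood at 20.2, 20.3 and 22.0 FPKM in HOCl 100 µM, against 16.8, 19.0 and 17.9 FPKM in HBSS. Its p was the smallest of the set, at a log2 difference of 0.21 ± 0.09 (SE; limma unadjusted p = 0.044, adjusted p = 0.636). Mrpl39, related in sequence to threonyl-tRNA synthetase, stood at 23.0, 22.6 and 21.7 FPKM in HOCl 100 µM and at 20.5, 20.6 and 19.6 FPKM in HBSS, and differed by 0.14 ± 0.07 (SE). In both genes the groups did not overlap. Mrpl47 and Mrps27, an RNA-binding protein with pentatricopeptide repeats, likewise had all HOCl 100 µM libraries above all HBSS libraries, and Mrpl46, whose exons overlap those of Mrps11 on the other strand, did not; their log2 differences were 0.13 ± 0.07, 0.23 ± 0.12 and 0.21 ± 0.12 (SE).

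The spread that the 12 libraries share is widened by cell media replicates 1 and 2. With those left out, the differences between HOCl 100 µM and HBSS stay as they are and the median SE over the 74 genes is 0.064, against 0.134 with all 12 libraries. On these 10 libraries limma called none of the 74 after adjustment, against 0.241% of all genes called, and the smallest adjusted p was 0.056. For the genes above the adjusted p on 10 libraries was 0.085 for Mrpl34, 0.078 for Mrpl52, 0.081 for Mrpl20, 0.090 for Mrpl12, 0.066 for Mrpl11, 0.081 for Mrps24, 0.078 for Mrps7 and 0.085 for Mrpl30. At an unadjusted p under 0.05 there were 33 of the 74, each higher in HOCl 100 µM, against 32.2% of all genes in either direction. The 95% interval on 10 libraries ran from 0.12 to 0.69 for Mrpl34, from 0.12 to 0.43 for Mrpl11 and from -0.07 to 0.17 for Mrpl45.

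**Figure D3:**
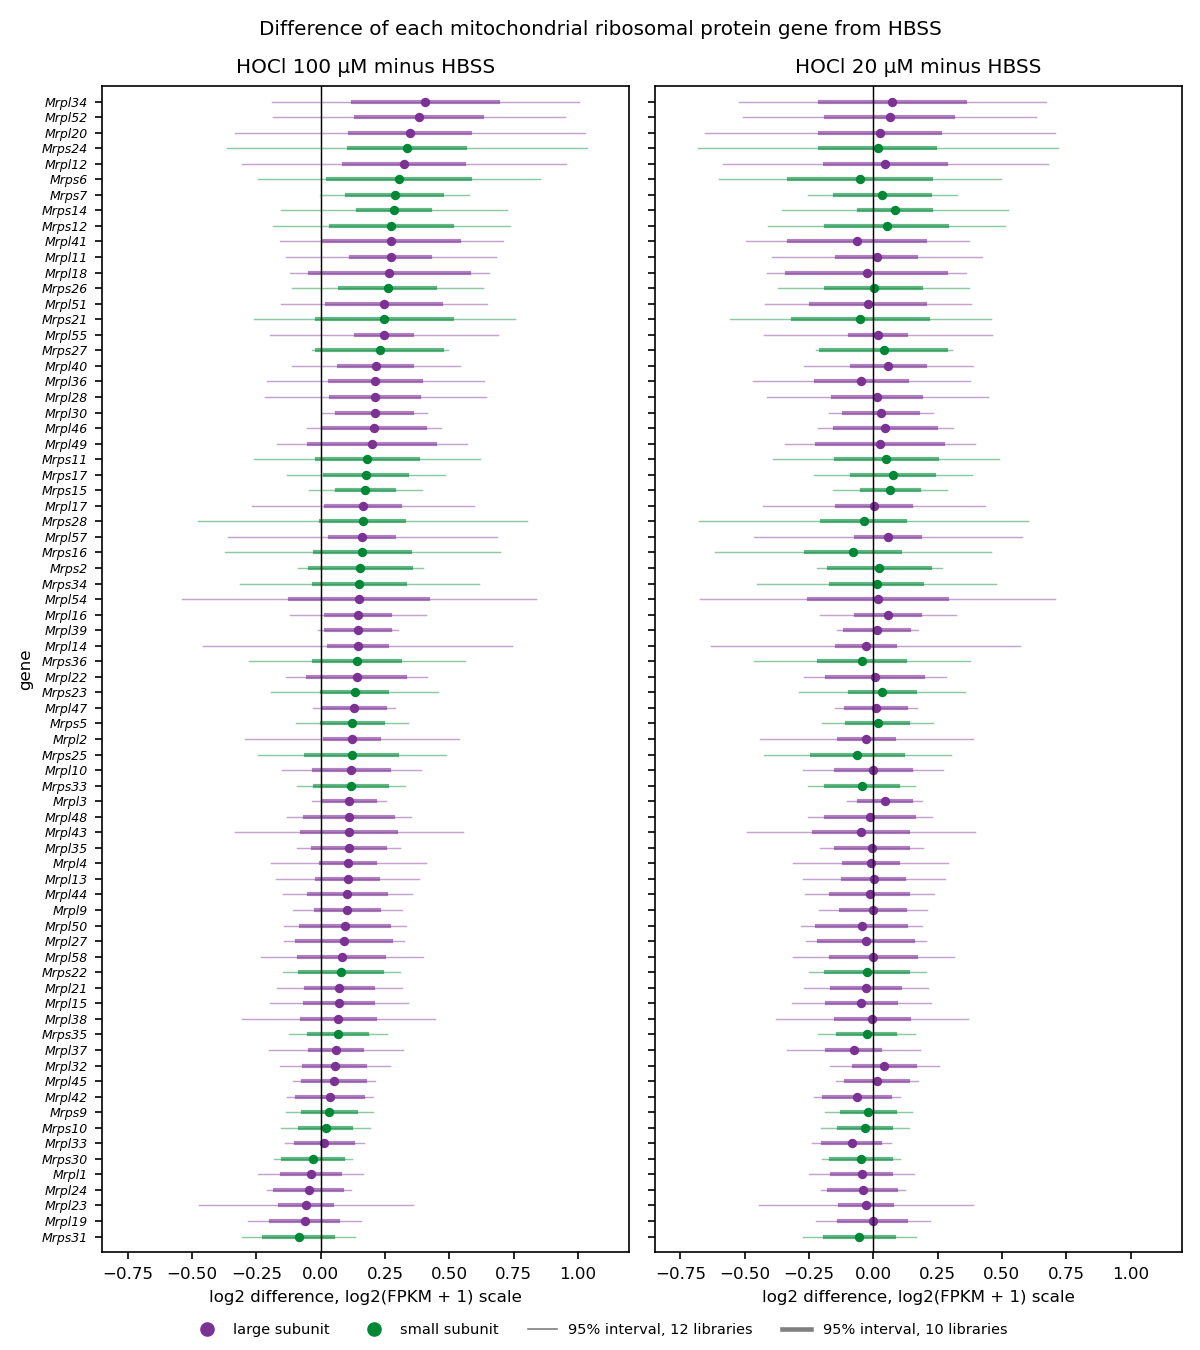
Log2 difference of each of the 74 genes from HBSS on the log2(FPKM + 1) scale, for HOCl 100 µM (left) and HOCl 20 µM (right), in the same order in both panels. Points are limma estimates, thin bars their 95% intervals with 12 libraries and thick bars those without cell media replicates 1 and 2. At 100 µM 68 of the points lie above 0, and at 20 µM the points lie between -0.08 and 0.08.

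Both subunits stood higher. The median difference between HOCl 100 µM and HBSS was 0.12 over the 48 large-subunit genes, of which 44 were above 0, and 0.16 over the 26 small-subunit genes, of which 24 were above 0. Split by origin, the 29 large-subunit genes with a bacterial counterpart had a median of 0.12 with 25 above 0, and the 19 without one a median of 0.14 with all 19 above 0. In the small subunit the 15 genes with a counterpart had a median of 0.18 with all 15 above 0, and the 11 without one a median of 0.12 with 9 above 0. The subunits follow the symbols, so Mrps30 and Mrps36 are counted in the small subunit, among the 11 without a counterpart, despite the placements given above. The differences between these groups of genes were not tested.

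At HOCl 20 µM the middle of the set lay at its HBSS level. The median difference from HBSS was -0.0014, 36 of the 74 genes were above 0 against 53.9% of all genes, and the single values ran from -0.08 to 0.08. Limma called none of the 74, with 0% of all genes called, and none had an unadjusted p under 0.05, against 1.08% of all genes. On 10 libraries it called none of the 74 and 0% of all genes, and again none had an unadjusted p under 0.05, against 3.08% of all genes. The summed level was 1444, 1534 and 1597 FPKM in the HOCl 20 µM libraries, against 1447, 1598 and 1527 FPKM in the HBSS libraries, so the groups overlapped. The set took 0.361% ± 0.0132 of reads in HOCl 20 µM and 0.361% ± 0.0138 in HBSS (SD, n = 3 each). On 10 libraries, the 95% interval of the difference between HOCl 20 µM and HBSS ran from -0.21 to 0.36 for Mrpl34, among the wider ones, and from -0.13 to 0.07 for Mrps10, the narrowest; the median width was 0.291. Differences inside these intervals are not excluded by these libraries.

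In single genes, Mrpl33 at HOCl 20 µM stood at 3.29, 3.25 and 3.37 FPKM, against 3.54, 3.45 and 3.70 FPKM in HBSS, and was the only one of the 74 with every HOCl 20 µM library below every HBSS library, against 3.48% of all genes. Gm43809 overlaps its exons on the same strand, so some of its reads are uncertain. Mrpl57 was the only one with every HOCl 20 µM library above, at 9.84, 10.0 and 9.79 FPKM in HOCl 20 µM and 9.67, 9.29 and 9.47 FPKM in HBSS, against 4.21% of all genes. Both genes are of the large subunit, and both differences were under 0.1 on the log2 scale. The biggest difference above 0 was that of Mrps14, at 0.08 ± 0.20 (SE). Mrpl37 differed by -0.08 ± 0.12, Mrps16 by -0.08 ± 0.24, Mrps17 by 0.08 ± 0.14, Mrps15 by 0.07 ± 0.10 and Mrpl42 by -0.06 ± 0.08 (SE).

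Set directly against HOCl 20 µM, HOCl 100 µM again stood higher. The HOCl 100 µM libraries are the same as in the comparison with HBSS, so the results are not independent of each other. The median difference was 0.13, and 70 of the 74 genes were above 0, against 46.2% of all genes. In 33 genes every HOCl 100 µM library was above every HOCl 20 µM library, against 12.7% of all genes, and in none below, against 15.6%. None was called by limma with adjustment, with 0% of all genes called and a smallest adjusted p of 0.825, and none had an unadjusted p under 0.05, against 4% of all genes. On 10 libraries none was called either, with 0% of all genes called, and 30 had an unadjusted p under 0.05, all higher in HOCl 100 µM, against 26.2% of all genes in either direction. In 20 of the 74 genes the 3 HOCl 100 µM libraries were above all 3 HBSS and all 3 HOCl 20 µM libraries, against 8.34% of all genes.

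The largest differences between the doses were in Mrps6, Mrpl41 and Mrpl34. Mrps6 stood at 6.41, 9.56 and 8.18 FPKM in HOCl 100 µM, against 5.64, 5.65 and 6.77 FPKM in HOCl 20 µM, and the groups overlapped. Mrpl41, a large-subunit protein without a bacterial counterpart, stood at 25.3, 29.2 and 27.6 FPKM in HOCl 100 µM, against 20.1, 21.2 and 23.0 FPKM in HOCl 20 µM, without overlap (log2 difference 0.34 ± 0.20 SE; limma adjusted p = 0.825). Mrpl30, Mrps7, Mrpl39 and Mrps33 had all HOCl 100 µM libraries above all HOCl 20 µM libraries, with log2 differences of 0.18 ± 0.09, 0.25 ± 0.13, 0.13 ± 0.07 and 0.16 ± 0.09 (SE). Mrpl18, whose bacterial counterpart binds 5S ribosomal RNA, differed by 0.29 ± 0.18 (SE) with overlap.

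**Figure D4:**
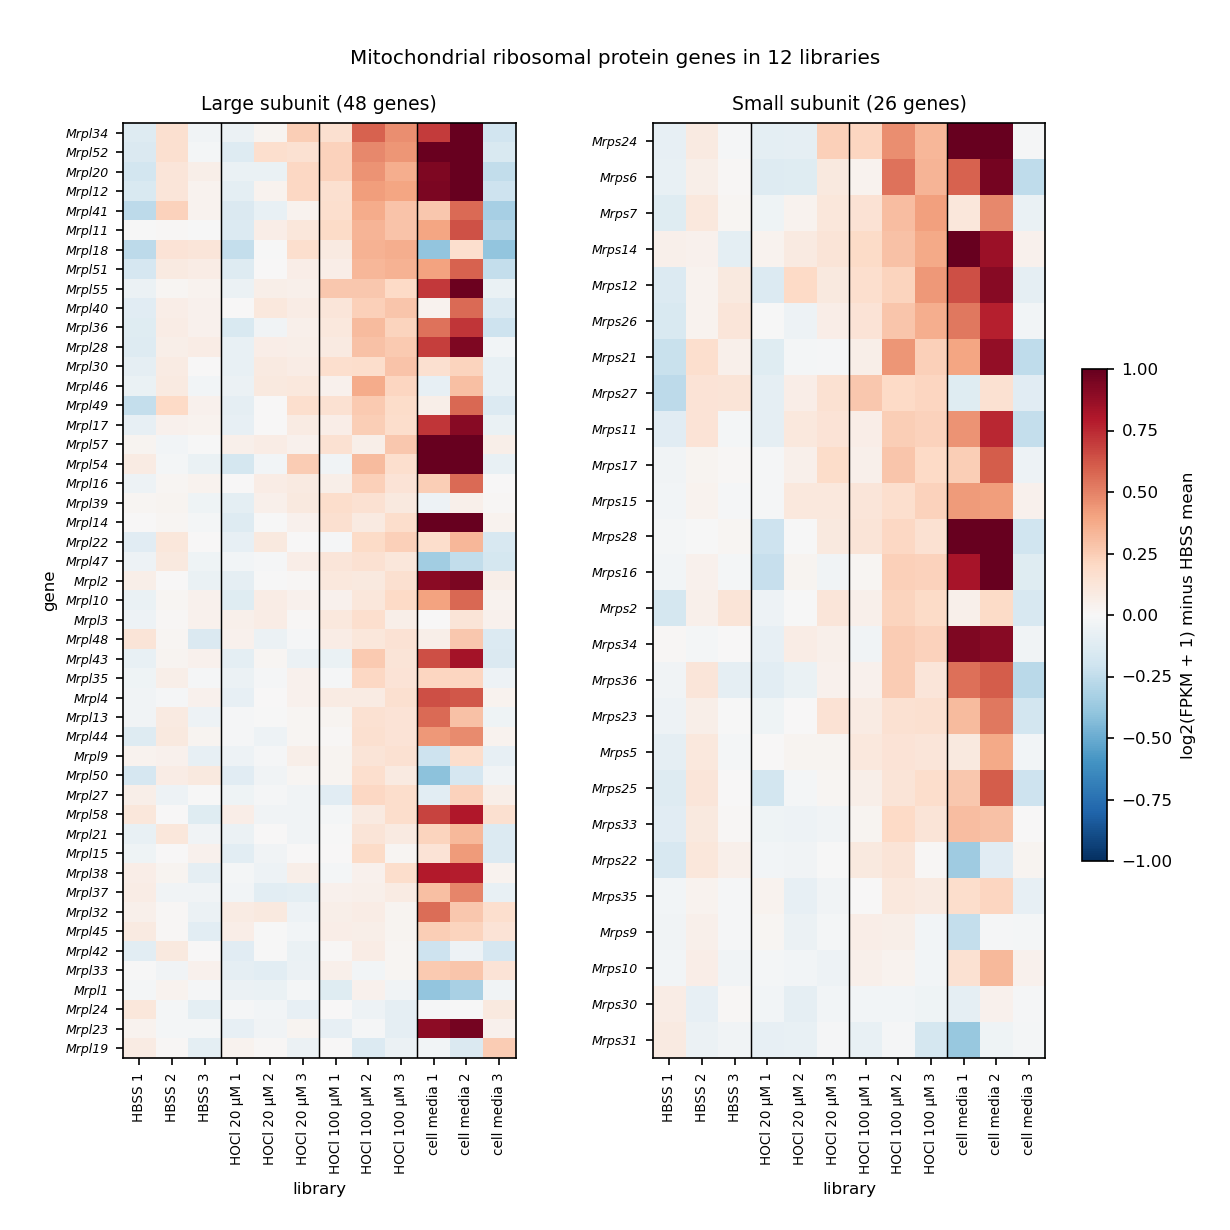
Log2(FPKM + 1) minus the HBSS mean of each gene, for the 48 large-subunit genes (left) and the 26 small-subunit genes (right) in the 12 libraries, sorted by the difference between HOCl 100 µM and HBSS; colours are capped at 1 and -1. Most rows are above 0 (red) in the HOCl 100 µM columns, 61, 68 and 66 genes over both panels in replicates 1, 2 and 3. The colours are faint in HOCl 100 µM replicate 1, where the median is 0.06, against 0.19 and 0.17 in HOCl 100 µM replicates 2 and 3. The deepest colours are in cell media replicates 1 and 2.

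Within 3 of the 4 groups, the library numbered 1 was low in this gene set. Replicate 1 was the lowest of its group in 49 of the 74 genes in HBSS, in 54 in HOCl 20 µM and in 55 in HOCl 100 µM. In cell media it was the lowest in 15, and cell media replicate 3 in 58. These ranks were not counted over all genes, so whether they are particular to the set was not tested. The spread between replicates was small, with a median coefficient of variation of 6.11% in HBSS, 4.86% in HOCl 20 µM and 5.89% in HOCl 100 µM, and it was 22.5% in cell media.

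The comparison of HBSS with cell media rests on the cell media libraries that stood apart. With all 12 libraries, 63 of the 74 genes were lower in HBSS than in cell media and 11 higher, against 61.2% of all genes higher in HBSS, and the median difference was -0.24 where that of all genes was 0.10. Median-of-ratios scaling moved the median of all genes to -0.016 and that of the set to -0.38. Limma called none of the 74, with 0.0166% of all genes called, and 31 had an unadjusted p under 0.05, against 40% of all genes. In 8 genes every HBSS library was below every cell media library, against 8.91% of all genes, and in 2 above, against 12.7%.

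Without cell media replicates 1 and 2 a single cell media library is left, and its difference from HBSS has no replicate check. Against that library the median was 0.06, and 51 of the 74 genes were above 0. Over all genes the median was -0.014, and 5502 of 12026 were above 0. The limma test then assumes that the lone library varies as libraries of HBSS and HOCl do; it called none of the 74 and 0% of all genes, and 6 had an unadjusted p under 0.05, 4 of them higher in HBSS, against 6.84% of all genes. Cell media replicates 1 and 2 were above all other 10 libraries in 45 of the 74 genes, against 19.2% of all genes, and below all of them in 2, Mrpl1 and Mrpl47, against 37.2% of all genes. Cell media replicate 3 was within the HBSS range in 29 of the 74 genes, below it in 34 and above it in 11. The same counts were not taken over all genes, so they are not read as a trait of the set. Without cell media replicate 3 instead, limma called 57 of the 74 genes and 7852 of all genes between HBSS and the remaining cell media libraries, so the result depends on which cell media libraries are used.

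Mrps24, with the largest difference, stood at 23.4, 26.4 and 24.6 FPKM in HBSS, against 68.6, 72.7 and 24.6 FPKM in cell media. Mrpl14, whose bacterial counterpart lies where the subunits join, stood at 39.1, 39.6 and 38.5 FPKM in HBSS, against 97.4, 103.6 and 40.2 FPKM in cell media. In both, cell media replicate 3 was close to the level of HBSS, and against it alone the log2 differences were 0.01 and -0.04. Mrpl54, Mrpl57 and Mrps28 had the same pattern, with log2 differences of -0.88 ± 0.31, -0.80 ± 0.24 and -0.72 ± 0.29 (SE; limma adjusted p = 0.080, 0.071 and 0.101), and of 0.07, -0.06 and 0.20 against cell media replicate 3 alone. Mrpl58 was lower in all HBSS libraries than in all cell media libraries, at 8.27, 7.61 and 6.88 FPKM in HBSS and 12.7, 13.9 and 8.59 FPKM in cell media (log2 difference -0.55 ± 0.14 SE; limma adjusted p = 0.071). Mrpl32, a protein that must be cleaved by a mitochondrial protease before assembly, and Mrpl23 were also lower in every HBSS library, and Mrpl47 was higher in every HBSS library (log2 differences -0.33 ± 0.10, -0.63 ± 0.19 and 0.26 ± 0.07 SE; limma adjusted p = 0.071 for each). Against cell media replicate 3 alone, these differences were -0.16 for Mrpl58, -0.17 for Mrpl32, -0.05 for Mrpl23 and 0.18 for Mrpl47. Ict1os overlaps exons of Mrpl58 on the other strand, as Tmem63b does those of Mrpl14 and Actl6a and Ndufb5 do those of Mrpl47.

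The summed exon length of a gene moved with its difference. Exons were merged over all annotated transcripts of a gene, so this is not the length of a single RNA. The exons of the 74 genes summed to 607 to 8631 bases, with a median of 2541.5 against 3795 for the genes kept. Over the 74 genes the difference between HOCl 100 µM and HBSS correlated with log2 exon length at r = -0.53. It correlated with log2 mean FPKM at r = 0.43 and with GC content at r = 0.36. The 25 shortest genes had a median difference of 0.21, the 24 of middle length 0.15 and the 25 longest 0.08. All genes kept within the same 3 ranges of length had medians of 0.14, 0.07 and -0.04, lower than the set in each range.

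The split within cell media followed length too. The difference between cell media replicates 1 and 2 and cell media replicate 3 correlated with log2 exon length at r = -0.49 over the 74 genes, and with the difference between HOCl 100 µM and HBSS, which shares no library with it, at r = 0.63. Genes are not independent replicates, and all points of a difference share the same libraries, so these values describe the libraries. With each library's trend on exon length removed, the median difference between HOCl 100 µM and HBSS was 0.10. In 22 genes every HOCl 100 µM library was then above every HBSS library, against 16.4% of all genes with a length. How much of the shift is due to length was not tested. Of the 74 genes, 30 share exon bases with another gene on either strand; the 44 that share none had a median of 0.14 with 41 above 0.

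**Figure D5:**
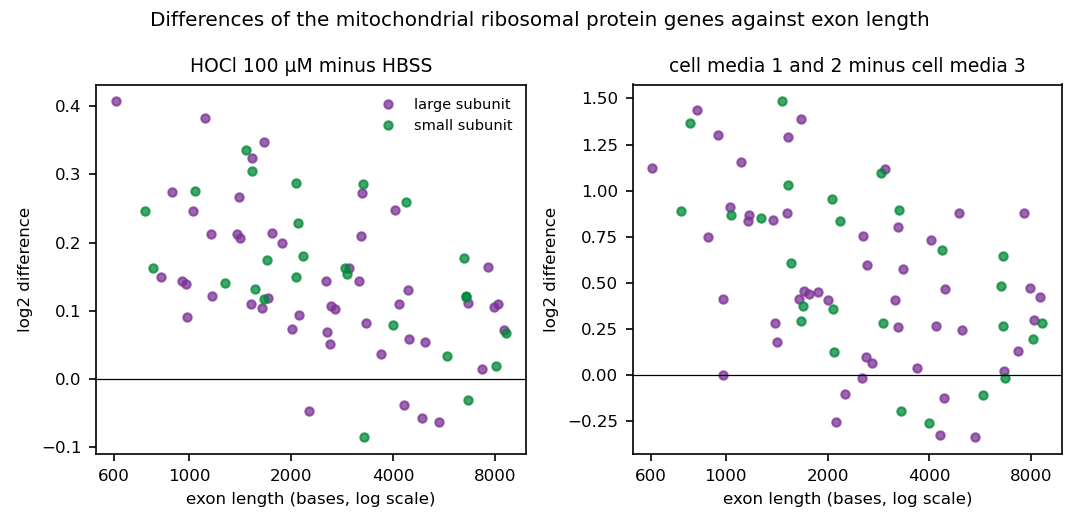
Log2 difference of each of the 74 genes against the length of its exons (log scale), for HOCl 100 µM minus HBSS (left) and for cell media replicates 1 and 2 minus cell media replicate 3 (right). In both panels the short genes have the larger differences (r = -0.53 and -0.49 over 74 genes), on scales that differ.

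Promoters were read for the motifs that are known from genes of mitochondrial proteins. RefSeq gave a promoter, from 250 bases before the start to 50 after it, for 65 of the 74 genes, on the mouse build GRCm38.p6. Searched on both strands, the NRF1 motif, GCGCA and GCGC with 1 base of any kind between them, was in 13 of the 65, or 20%, against 5.19% of 27025 genes with a promoter and 13% of those kept here. The windows of the set had a median GC content of 58.3%, against 52.7% over all windows, which bears on motifs rich in G and C. The GABP motif CCGGAAG was in 22, or 33.8%, against 9.93% of all and 22.8% of the genes kept. The YY1 motif AANATGGCG was in 10, or 15.4%, against 2.76% and 6.96%, and the E-box CACGTG in 4, or 6.15%, against 8.09% and 12.5%. The letters of these motifs do not contain one another, and overlapping matches of a single motif were each counted. At least 1 of the 4 was in 40 of the 65 genes.

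The promoters of 4 genes are shown because they belong to the pair of genes with the largest differences at HOCl 100 µM, the most abundant gene, and Mrpl45, which has the most NRF1 matches of these and a difference of 0.05. Capitals mark a motif, NRF1 in Mrpl12 and Mrpl45 and GABP in Mrpl34 and Mrpl52, and all 4 are on the plus strand, at chr8:71464676-71464975, chr14:54426659-54426958, chr11:120484387-120484686 and chr11:97315466-97315765 in the order of the lines.
Mrpl34: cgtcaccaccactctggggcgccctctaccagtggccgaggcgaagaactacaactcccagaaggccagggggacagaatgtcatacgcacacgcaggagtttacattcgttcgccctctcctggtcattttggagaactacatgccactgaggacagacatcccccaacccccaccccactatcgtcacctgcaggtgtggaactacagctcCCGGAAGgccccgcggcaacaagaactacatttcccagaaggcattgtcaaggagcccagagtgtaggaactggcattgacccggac
Mrpl52: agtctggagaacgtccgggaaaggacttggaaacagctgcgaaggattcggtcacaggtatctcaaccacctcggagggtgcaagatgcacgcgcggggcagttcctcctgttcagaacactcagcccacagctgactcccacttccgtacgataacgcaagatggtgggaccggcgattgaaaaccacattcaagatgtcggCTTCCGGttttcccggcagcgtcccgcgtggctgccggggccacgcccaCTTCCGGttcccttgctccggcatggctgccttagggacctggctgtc
Mrpl12: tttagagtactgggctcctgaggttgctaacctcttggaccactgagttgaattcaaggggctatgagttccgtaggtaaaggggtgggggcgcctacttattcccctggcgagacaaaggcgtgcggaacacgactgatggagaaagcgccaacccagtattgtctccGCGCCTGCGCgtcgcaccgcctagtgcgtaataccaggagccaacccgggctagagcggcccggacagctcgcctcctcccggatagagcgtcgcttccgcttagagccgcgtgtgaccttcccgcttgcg
Mrpl45: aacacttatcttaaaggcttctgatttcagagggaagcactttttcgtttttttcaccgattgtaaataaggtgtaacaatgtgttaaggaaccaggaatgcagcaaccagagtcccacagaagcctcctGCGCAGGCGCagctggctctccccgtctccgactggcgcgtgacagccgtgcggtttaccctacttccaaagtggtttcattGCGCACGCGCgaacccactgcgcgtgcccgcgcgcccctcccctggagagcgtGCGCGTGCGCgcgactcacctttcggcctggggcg

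The single GABP match of Mrpl34 begins 37 bases before the start and the pair in Mrpl52 47 bases before it and at base 3 after it. The NRF1 match of Mrpl12 begins 81 bases before the start, and those of Mrpl45 begin 120 and 38 bases before it and at base 16 after it. Across the set, genes with and without a motif were set side by side, with no test. The 13 genes with an NRF1 match had a median difference between HOCl 100 µM and HBSS of 0.14 and the 52 without one 0.14. With a GABP match the median was 0.15 over 22 genes, and without one 0.14 over 43 genes. With a YY1 match it was 0.10 over 10 genes, and without one 0.14 over 55 genes. With an E-box it was 0.17 over 4 genes, and without one 0.14 over 61 genes. A match in these letters is a description of the sequence, and no binding was measured.

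The 8 subunit genes with other symbols gave a mixed picture at HOCl 100 µM. Aurkaip1, a protein of the small subunit, stood at 25.98, 27.5 and 27.7 FPKM in HOCl 100 µM, against 21.6, 22.3 and 20.9 FPKM in HBSS. It had the tightest separation of these 8 genes, with a log2 difference of 0.31 ± 0.26 (SE; limma adjusted p = 0.697). On 10 libraries it was the only one of the 8 that limma called (adjusted p = 0.046), against 0.241% of all genes called. Dap3, the GTP-binding protein of the small subunit, at 13.3, 14.5 and 14.5 FPKM in HOCl 100 µM and 12.6, 12.7 and 12.4 FPKM in HBSS, and Gadd45gip1, of the large subunit, also had no overlap. Chchd1 differed by 0.15 ± 0.15, Mrps18c by 0.05 ± 0.13, Mrps18a by 0.04 ± 0.17, Mrps18b by -0.01 ± 0.12 and Ptcd3 by -0.02 ± 0.19 (SE). The median of the 8 was 0.10, with 6 above 0. In 37.5% of them every HOCl 100 µM library was above every HBSS library, against 16.5% of all genes.

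Genes that build or serve the mitochondrial ribosome without being part of it had medians nearer 0, and the difference from the set was not tested. Of 27 genes kept for assembly and ribosomal RNA maturation, 16 were above 0 at HOCl 100 µM against HBSS, with a median of 0.04 and 22.2% with every HOCl 100 µM library above every HBSS library, against 16.5% of all genes. Those with the smallest p were Rbfa, which matures the small subunit, at 11.9, 12.7 and 12.1 FPKM in HOCl 100 µM and 10.9, 9.77 and 10.3 FPKM in HBSS, the helicase Ddx28, which acts on the large subunit, and the rRNA methyltransferase Mettl15. Their log2 differences were 0.23 ± 0.12, 0.14 ± 0.11 and 0.13 ± 0.10 (SE). Of 15 translation factors, 10 were above 0, with a median of 0.03. Mtif3, the initiation factor that keeps the subunits apart, differed by 0.14 ± 0.09, Guf1, a GTPase that acts on the elongating ribosome, by -0.19 ± 0.17, and Slirp, a protein that stabilises mitochondrial messenger RNA, by 0.09 ± 0.09 (SE).

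The enzymes that charge mitochondrial transfer RNAs had a median slightly below 0, as did all genes. Of 20 such genes, 8 were above 0, or 40%, against 48.5% of all genes. The median was -0.02, against -0.0063 over all genes. In 25% of the 20, every HOCl 100 µM library was below every HBSS library, against 17.6% of all genes. In none was every HOCl 100 µM library above, against 16.5% of all genes. Aars2, for alanine, stood at 4.42, 4.53 and 4.24 FPKM in HOCl 100 µM, against 5.61, 4.92 and 4.96 FPKM in HBSS, and every HOCl 100 µM library was below every HBSS library (log2 difference -0.19 ± 0.07 SE; limma adjusted p = 0.625). Mars2, for methionine, and Tars2, for threonine, also had all HOCl 100 µM libraries below all HBSS libraries, with log2 differences of -0.21 ± 0.09 and -0.15 ± 0.07 (SE). Of 12 genes kept for mitochondrial transcription and its nuclear regulators, 4 were above 0, or 33.3%, and the median was -0.10. Pprc1, a coactivator of NRF1, differed by -0.14 ± 0.09, the transcription factor Yy1 by -0.14 ± 0.11 and the coactivator Ppargc1b by -0.10 ± 0.08 (SE). Limma called none of these genes after adjustment on either 12 or 10 libraries.

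The 15 messenger and ribosomal RNAs of mitochondrial DNA, which the ribosome carries or translates, had a median of -0.06 at HOCl 100 µM against HBSS, with 6 above 0. The largest difference was that of mt-Co3, which encodes part of cytochrome c oxidase, at 114.0, 110.5 and 173.7 FPKM in HOCl 100 µM, against 67.1, 64.4 and 56.5 FPKM in HBSS. It was also at 158.5 FPKM in HOCl 20 µM replicate 3, above HOCl 100 µM replicates 1 and 2, and its log2 difference from HBSS at 100 µM was 1.04 ± 0.32 (SE; limma adjusted p = 0.602). mt-Co2 differed by 0.46 ± 0.23 and mt-Co1 by -0.22 ± 0.14 (SE). At HOCl 20 µM against HBSS the 15 RNAs had a median of -0.15, with 3 above 0. In 40% of them every HOCl 20 µM library was below every HBSS library, against 3.48% of all genes. In none was every HOCl 20 µM library above, against 4.21% of all genes. The libraries were made from messenger RNA, so the levels of the ribosomal RNAs mt-Rnr1 and mt-Rnr2 depend on how much of them was carried along.

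A pair of further sets of nuclear genes for large complexes were read beside the set. Of 77 cytosolic ribosomal protein genes kept, 72 were above 0 at HOCl 100 µM against HBSS with a median of 0.12, and 16 of them, or 20.8%, had every HOCl 100 µM library above every HBSS library, against 16.5% of all genes. On 10 libraries limma called 1 of them, Rps12, against 0.241% of all genes called. Rps12 stood at 117.1, 111.7 and 124.3 FPKM in HOCl 100 µM and 85.4, 96.4 and 85.1 FPKM in HBSS (log2 difference 0.40 ± 0.06 SE on 10 libraries; limma adjusted p = 0.048, and 0.666 on 12). Of 74 genes kept for nuclear subunits of the respiratory complexes, 73 were above 0 with a median of 0.18, and 43 of them, or 58.1%, had every HOCl 100 µM library above every HBSS library. For the mitochondrial ribosomal protein genes the median was 0.14 and the share 40.5%. The differences between the sets were not tested.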

How the data were processed

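The data are 12 messenger RNA libraries of J774A.1 cells, 3 in each of 4 groups that the labels name. The deposited table held FPKM values of 28977 gene IDs, made by the authors with HISAT2 and featureCounts on the build GRCm39, per the submitters' processing notes; versions, annotation and strand setting are not given in the sources used here. A pair of sequencing instruments is named without its libraries, so that a batch of this kind was not tested. The main test used the FPKM values, and reads were recovered from them. Values below 1 FPKM, times exon length, lay on multiples of 1 step in each library, and 98.26% of them were whole reads within 0.01. The recovered reads gave the depth, the shares of reads, the counting error and 1 alternative test. Symbols, for 28302 IDs, exon lengths, GC content and overlaps came from the GENCODE M21 annotation, of an older build than the files, so it gave no coordinates; promoters and their coordinates are RefSeq's.

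Genes with at least 1 FPKM in at least 3 libraries were kept, which left 12026, and tested as log2(FPKM + 1), a scale on which differences of low genes are understated. limma 3.58.1 in R 4.3.3 was fitted to all 12 libraries with 1 mean per group and a mean-variance trend, without covariates, two-sided, with Benjamini-Hochberg adjustment over all kept genes and a threshold of 0.05. The fit was run on simulated libraries that lacked the split within cell media and held changes larger than the median shift seen here. That run does not show what the fit can detect in these data. No set test was run. Lists are described by counts and medians. The 74 genes and all lists were chosen with earlier results of these data known.

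Named were a panel of 12 genes by role, in each comparison the 6 genes with the smallest p and the 6 with the largest difference, the 3 highest and 3 lowest in level, the 8 subunit genes of other symbols, up to 3 genes with the smallest p in each other list, and any gene called on 12 libraries, which gave none of these. Rps12, called on 10 libraries, Mrpl1 and Mrpl47 in cell media, Mrpl57 and Mrps10 at HOCl 20 µM, the printed promoters and names marked as such were chosen after their values were seen. After the data were seen, Mrpl47 was moved to the genes with a bacterial counterpart and Mrpl55 to those without. Pseudogenes of Mrpl23, Mrpl48 and Mrps36 are in the table and may share reads with them. Alternatives were pseudocounts, filters, scalings, the libraries fitted, a replicate block, no trend, removal of length or GC trends (loess, span 0.5), limma-voom and leaving out each library. Plots were made in Python 3.11.15 with pandas 2.3.3 and matplotlib 3.10.9.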

Additional observations from a re-analysis of the deposited data

How the results depend on the processing

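The median over the 74 genes stayed above 0 for HOCl 100 µM against HBSS and against HOCl 20 µM under every alternative run; with single libraries left out it was 0.12 to 0.18 against HBSS and 0.11 to 0.17 against HOCl 20 µM. For HOCl 20 µM against HBSS it lay between -0.03 and 0.02 with single libraries left out. The labels do not say that a replicate number marks a shared culture, batch or day. Same-numbered deviations correlated at 0.264, 0.075 and -0.025 between HOCl 100 µM and HBSS. Between HOCl 100 µM and HOCl 20 µM they correlated at 0.377, 0.055 and 0.414. There each HOCl 100 µM library correlated best with its own number. However, HOCl 20 µM replicate 2 correlated best with HOCl 100 µM replicate 1, at 0.079, so the pairing is not established. With the replicate block on 12 libraries, limma called 0 genes in the comparisons of HOCl and 193 between HBSS and cell media, none of the set. With the replicate block and without cell media replicates 1 and 2 it called 2979 genes and 25 of the set for HOCl 100 µM against HBSS, 2088 genes and 24 of the set for HOCl 100 µM against HOCl 20 µM, and 0 genes for HBSS against cell media, with a median of 0.087 over the set. It called 29 genes for HOCl 100 µM against HBSS without cell media replicates 1 and 2, and 29 without the cell media group, none of the set in either.

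Counts of all genes called moved as follows. With no filter they were 1 for HOCl 100 µM against HBSS, 6 for HOCl 20 µM against HBSS, 11 for HOCl 100 µM against HOCl 20 µM and 5 for HBSS against cell media. With only the 2 groups compared they were 2 for HOCl 100 µM against HBSS, 1 for HOCl 100 µM against HOCl 20 µM and 0 for HBSS against cell media. For HBSS against cell media they were 4 with the GC trend removed, 21 with the length trend removed, 4 with limma-voom, 1 with a mean of at least 5 FPKM, 5 with no mean-variance trend, 1 with a pseudocount of 0.5, 4 with quantile normalization and 0 without cell media replicates 1 and 2, where the median of the set was 0.0648. With single libraries left out they ran from 0 to 1 for HOCl 100 µM against HBSS and from 0 to 7852 for HBSS against cell media, where 0 to 57 of the set were called, the highest counts being those without cell media replicate 3. Genes of the set with every HOCl 100 µM library above numbered 30 to 53 against HBSS and 34 to 60 against HOCl 20 µM. The highest counts were those without HOCl 100 µM replicate 1. Over all 12026 genes kept, the count without that replicate was 3199 against HBSS and 2827 against HOCl 20 µM. With all libraries it was 1987 and 1527. These last ranges and counts were added after the data were seen. The causes were not tested.

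Several small differences changed sign. For HOCl 100 µM against HBSS, Mrps30 was at 0.0681 with the GC trend removed, 0.0441 with the length trend removed and 0.01 under quantile normalization, and from -0.0731 to 0.00669 with single libraries left out, the highest without HBSS replicate 1. Mrpl45 was at -0.0257 under quantile normalization and from -0.000236 to 0.0971 with single libraries left out, the lowest without HBSS replicate 3. Leaving out single libraries gave -0.0022 to 0.137 for Mrps22, the lowest without HBSS replicate 1, and -0.00419 to 0.0356 for Mrpl33, below 0 without HOCl 100 µM replicate 1 and, at -0.00273, without HBSS replicate 2. For HOCl 20 µM against HBSS, Mrpl34 ran from -0.0139, without HOCl 20 µM replicate 3, to 0.154. For HOCl 100 µM against HOCl 20 µM, Mrpl45 was at -0.0072 with the length trend removed and -0.025 under quantile normalization, and Mrps30 ran from -0.00418, without HOCl 20 µM replicate 2, to 0.0285 with single libraries left out. For HBSS against cell media without cell media replicates 1 and 2, Mrps24, Mrpl54, Mrps28 and Mrpl20 were at 0.0107, 0.0727, 0.196 and 0.248, and at 0.0786, 0.137, 0.244 and 0.333 with the replicate block added. Counting error, 1.49% to 8.57% of a gene's reads in a library, limits the genes with few reads most.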
